A study of Mus musculus with 6 samples.

Results

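Solute carriers (SLC) are membrane proteins that move amino acids, sugars, ions, vitamins and other small molecules across the plasma membrane and the membranes of organelles. The genes described here are the 61 of the 2744 genes in a deposited PRO-seq table whose symbol begins with Slc and a family number. Slc4a1 and the mitochondrial carriers of the Slc25 family were not counted among them. They belonged to 31 families, and 1 transcript row per gene was used, that with the highest mean body count. Slc9a3r1 entered by its name alone: it encodes a scaffold protein that binds a sodium-proton exchanger and is not itself a carrier.

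PRO-seq labels the nascent RNA of engaged RNA polymerase in isolated nuclei and sequences it. The study asked how transcription differs between progenitors carrying wild-type MLLT3 and progenitors carrying a mutant of its YEATS domain, which reads modified histones. The 6 libraries came from cKIT+ bone marrow cells of mice that were female, of the C57/BL6 strain, Mllt3 flox/flox and Rosa26Cre+, with 3 libraries in each of the 2 groups. Reads were counted in a head window of 330 bp, which took in 30 bp before the transcript start, and in a body window holding the rest of the transcript, introns included.

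The WT group was transduced with wild-type MLLT3 and the DM group with MLLT3 K63E K67E. Both groups then spent 8 days in methylcellulose with a mixture of hematopoietic cytokines and 200 nM 4-hydroxytamoxifen, which per the labels was meant to delete their own floxed Mllt3; the loss itself is not shown by these data, and untreated cells are not analysed here. The labels name Cre at the Rosa26 locus as the recombinase, give no age, and do not say whether the replicates came from separate animals or transductions. The p-values therefore measure the spread between libraries, which may be technical. All libraries carry batch label 1.

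Most carriers fall into families that share a substrate. The neutral and cationic amino acid transporters feed protein synthesis and, at the lysosome, the signalling that senses amino acids. Glucose carriers of the Slc2 family set sugar uptake. Iron, zinc and copper carriers handle metals that blood cells need for heme, for enzymes and, in phagocytes, for defence against microbes. Head reads in PRO-seq come mostly from polymerase close to the promoter, where it often pauses before release, and body reads come from polymerase that is elongating.

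Library totals ran from 15112853 to 22981603 reads, and values are given as reads per 1000000 of that total (RPM) with the SD over 3 libraries. The table held only rows that the authors had called in their own comparison of body counts between the groups, with a largest adjusted p of 0.0498 in the authors' deposited table. A body difference was therefore a condition for being among these 61 genes: body values are given as a description, and the share of members past a threshold says nothing about carriers. Head reads played no part in that selection, although they come from the same libraries.

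Marker genes of mature myeloid cells moved with the groups. All 10 held of 17 listed, among them Itgam, Lyz2 and Csf1r, were higher in DM, with summed body levels of 289 to 370.0 RPM in WT and 803 to 892 RPM in DM. Of 11 stem and progenitor genes, 8 were held, Kit and Cd34 among them, with sums of 2806 to 3584 RPM in WT and 1725 to 1795 RPM in DM; 6 of the 7 tested were lower and Procr was higher. The 5 held of 10 mast and basophil genes, of which Gata2 is also on the stem list, were all lower, at 2627 to 3846 RPM against 1816 to 1902 RPM, as were the 3 held of 12 erythroid and megakaryocyte genes (183 to 211 against 101 to 117 RPM). Of the granulocyte precursor and lymphoid lists, Ctsg (lower) and Il7r (higher) were held. None of the 9 stromal and endothelial genes was analysed here. None of the genes held was at 0 in all 6 libraries, and Hoxa9, held on the stem list, had too few body reads to be tested. Over the 2721 genes tested, 57.4% of bodies were higher and 42.1% lower in DM. A listed gene that did not pass the authors' body test could not be held, so these lists cannot show unchanged markers. In bulk nuclei, fewer cells of a type and less transcription per cell cannot be told apart, and the part of cell composition in the results below was not tested. Body reads of Mllt3 itself were present in all libraries, at 77.2 to 95.3 RPM in WT and 58.4 to 63.0 RPM in DM; the table does not separate the transduced coding sequence from what the floxed gene leaves.

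**Figure D1:**
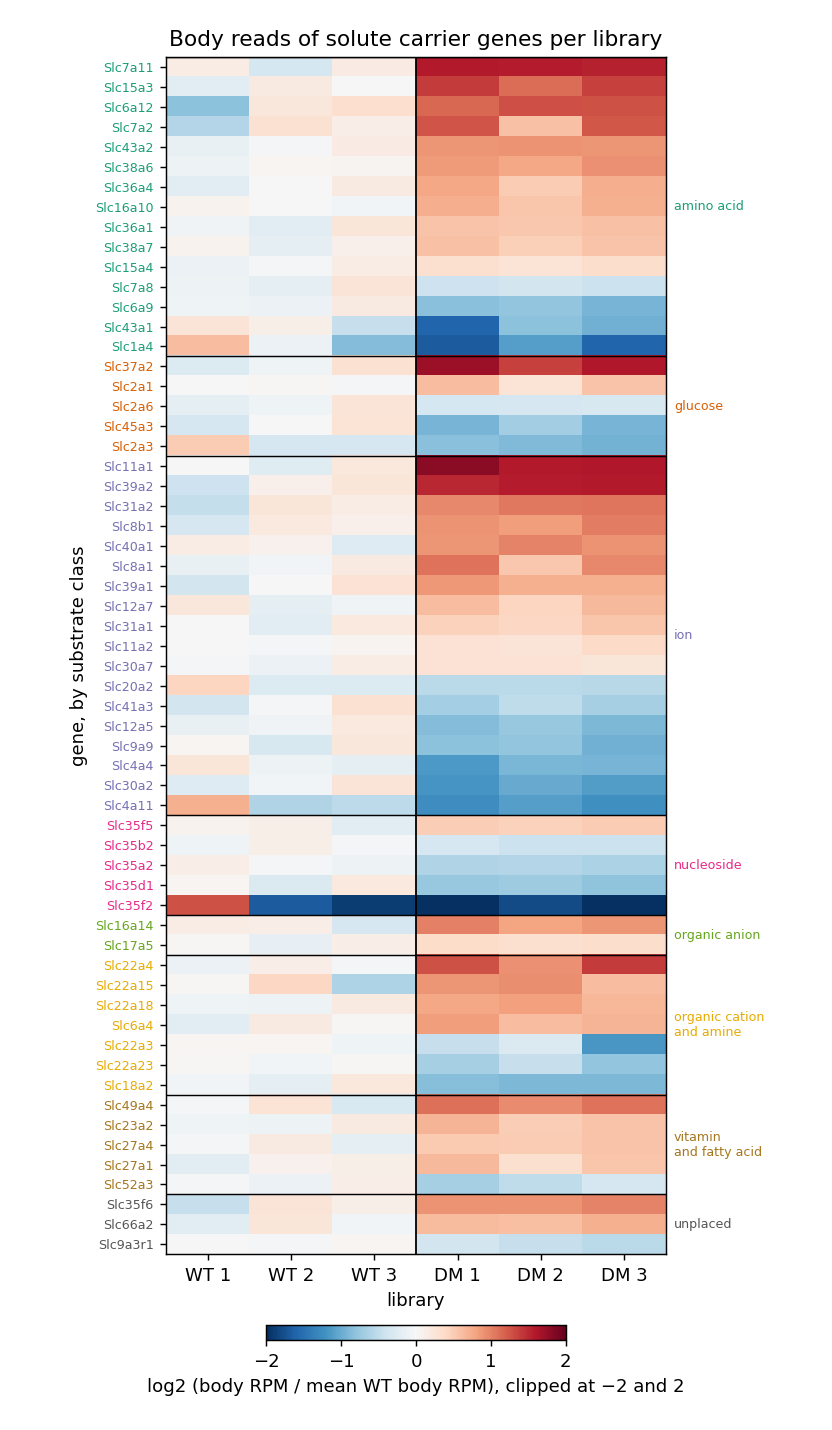
Body reads of 60 of the carriers in each library (columns) as log2 of the RPM over the mean WT RPM of the same gene, on the scale of library totals and with colours limited to -2 and 2. Genes are ordered within substrate class by their fitted change; the WT 1 column differs from the other 2 WT columns in Slc35f2, Slc4a11 and Slc1a4.

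In gene bodies, 38 of the 61 carriers were higher and 23 lower in DM, or 62.3% and 37.7%, with edgeR's quasi-likelihood test at an adjusted p of 0.05. Over the 2721 genes tested in the table, 99.5% passed, 57.4% higher and 42.1% lower, as the selection of rows sets. The median log2 fold change was 0.49 over the carriers and 0.40 over all genes. The 38 that were higher had log2 fold changes from 0.27 to 1.66, and the 23 that were lower from -0.34 to -2.43. In RPM, the 3 DM libraries lay above the 3 WT libraries in 38 genes and below them in 22, and they overlapped in Slc35f2; 56.9% and 38.2% of all genes were separated in these directions. The balance of directions depends on the scaling. With TMM factors 30 carriers were higher and 23 lower, or 56.6% higher. With DESeq2's size factors and test there were 20 and 23, or 46.5% higher. Over all genes the higher share of calls went from 57.7% to 49.7% and 42.7%. TMM and DESeq2 shifted the median body change over all genes by -0.21 and -0.33 on the log2 scale. With the authors' size factors, 38 carriers were higher and 23 lower, as with the library totals. Over all genes 57.4% of calls were then higher. Leaving out 1 library kept 59, 60 and 59 body calls without WT replicate 1, 2 or 3, and 48, 54 and 50 without DM replicate 1, 2 or 3. Among the 14 genes that lost the call in 1 or more of these fits were Slc35f2, Slc2a6, Slc30a7, Slc4a11, Slc20a2, Slc52a3, Slc22a18, Slc15a4, Slc7a8, Slc17a5, Slc43a1, Slc11a2 and Slc16a14. With DESeq2, 18 higher bodies lost the call, among them Slc11a2, Slc12a7, Slc15a4, Slc16a14, Slc17a5, Slc22a15, Slc22a18, Slc27a1, Slc27a4, Slc2a1, Slc30a7, Slc31a1, Slc35f5, Slc36a1, Slc38a7, Slc39a1 and Slc66a2.

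Families with several members often split. Of 19 families with 2 or more of these genes, 9 held both directions, 9 held only higher members and the Slc4 family held only lower ones. Slc2, Slc6, Slc7, Slc12, Slc22, Slc30, Slc35 and Slc43 were among the split families, and Slc8, Slc11, Slc15, Slc16, Slc27, Slc31, Slc36, Slc38 and Slc39 had higher members only. Under DESeq2's scaling Slc11a2 and Slc15a4 had values just below 0, so that Slc11 and Slc15 would then count as split, and Slc30a7 was at -0.062, so that the Slc30 family would then hold lower values only.

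Of the 15 amino acid and peptide carriers, 11 were higher and 4 lower in DM, with a median body log2 fold change of 0.67. Over all genes tested 57.4% were higher, with a median of 0.40. With DESeq2 the rises of Slc15a4, Slc36a1 and Slc38a7 lost their call and the falls kept theirs. Their summed body level was 916 ± 95.5 RPM in WT and 1336 ± 54.0 RPM in DM. The largest rise was in Slc7a11 (ENSMUSG00000027737.10, chromosome 3, 49892526 to 50443614, minus strand), the cystine-glutamate exchanger whose imported cystine is used to make glutathione. It had 91.2, 64.5 and 92.1 RPM in the WT libraries and 247, 245 and 240.5 RPM in the DM libraries. Each DM library lay far above each WT library, with a log2 fold change of 1.56 (SE 0.14). The deposited row spans 551089 bp, while the RefSeq gene is 134152 bp long, so its body window holds sequence beyond that gene model.

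Both peptide-histidine transporters of lysosomes and endosomes were higher. Slc15a3 (ENSMUSG00000024737.2, chromosome 19, 10842544 to 10859362, plus strand) had 34.5, 45.9 and 40.7 RPM in WT and 107, 87.6 and 104 RPM in DM, more than its WT spread apart (log2 fold change 1.3, SE 0.13). Its row overlaps Tmem132a, and whether strand was used in counting is not given in the sources used here. Slc15a4, its relative, had a smaller difference, from 70.7, 74.7 and 85.6 RPM in WT to 96.6, 93.5 and 98.3 RPM in DM (log2 fold change 0.32, SE 0.1), and was at -0.011 under DESeq2's scaling.

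Carriers of the lysosomal and plasma membrane that export or import neutral amino acids went both ways. The 6 given here were higher, while Slc7a8, Slc6a9, Slc43a1 and Slc1a4, given below, were lower. Slc43a2, a transporter of large neutral amino acids, had 107, 115 and 133 RPM in WT and 218, 221 and 219 RPM in DM. The DM libraries agreed within 3 RPM of each other, and the log2 fold change was 0.89 (SE 0.11). Slc36a1 and Slc36a4, proton-coupled amino acid transporters, went from 36.3 ± 6.04 and 30.5 ± 4.08 RPM in WT to 53.9 ± 0.922 and 48.6 ± 4.78 RPM in DM. Slc38a6, whose row overlaps Trmt5, went from 34.6 ± 2.12 to 62.2 ± 3.22 RPM, and Slc38a7, a lysosomal exporter of glutamine and asparagine, from 18.6 ± 1.92 to 27.2 ± 1.04 RPM. Slc16a10, which carries aromatic amino acids although its family carries monocarboxylates, went from 37.7 ± 1.63 to 59.8 ± 4.003 RPM.

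Slc6a12 (ENSMUSG00000030109.15, chromosome 6, 121343399 to 121365775, plus strand), the betaine and GABA transporter, had 7.88, 16.2 and 17.6 RPM in WT and 30.7, 33.98 and 33.7 RPM in DM. WT replicate 1 was lowest, and all DM libraries lay above all WT libraries (log2 fold change 1.24, SE 0.26). Slc7a2, the cationic amino acid transporter that supplies arginine, had 49.8, 91.97 and 81.95 RPM in WT and 178, 112 and 176 RPM in DM. DM replicate 2 was closest to the WT libraries but above them, and the log2 fold change was 1.06 (SE 0.25).

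Slc7a8, Slc6a9, Slc43a1 and Slc1a4 were the amino acid carriers with lower bodies in DM. Slc6a9 (ENSMUSG00000028542.17, chromosome 4, 117835333 to 117875198, plus strand), the glycine transporter that feeds heme synthesis in erythroid cells, had 113, 110.2 and 136 RPM in WT and 67.3, 69.1 and 62.9 RPM in DM. The groups were separate in all libraries and the log2 fold change was -0.85 (SE 0.11); its row overlaps Ccdc24 and B4galt2. Slc7a8, a neutral amino acid exchanger, had 202, 189 and 259 RPM in WT and 163, 167 and 161 RPM in DM; the log2 fold change of -0.4 (SE 0.13) went to -0.26 without WT replicate 3, its highest library. Slc43a1 (ENSMUSG00000027075.16, chromosome 2, 84840199 to 84863594, plus strand), a relative of Slc43a2 with similar substrates, had low levels of 7.702, 7.01 and 4.68 RPM in WT and 2.15, 3.66 and 3.303 RPM in DM. The Slc43 pair thus differed in direction, with -1.09 (SE 0.32) for Slc43a1. Slc1a4, a carrier of alanine, serine and cysteine, had 13.8, 8.27 and 4.94 RPM in WT and 2.85, 4.204 and 3.003 RPM in DM. WT replicate 1 was highest and WT replicate 3 came close to DM replicate 2, and without WT replicate 1 the log2 fold change went from -1.43 to -0.96.

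Among 5 sugar carriers, 2 were higher and 3 lower, and their summed body level was 762 ± 39.2 RPM in WT and 656 ± 28.9 RPM in DM. Slc45a3, whose substrate is disputed, went from 281 ± 58.7 to 156 ± 14.7 RPM. That fall was larger than the fall of the sum, so the direction of the sum rests on this gene. The glucose transporters of the Slc2 family split. Slc2a1, the basal glucose transporter of most cells, had 202, 205 and 196 RPM in WT and 309, 242 and 299 RPM in DM. DM replicate 2 was lowest of its group but above all WT libraries (log2 fold change 0.49, SE 0.11). Slc2a3 (ENSMUSG00000003153.10, chromosome 6, 122727809 to 122801640, minus strand), a high-affinity glucose transporter, had 258, 145 and 144 RPM in WT and 102, 98.5 and 94.8 RPM in DM. WT replicate 1 stood well above the other libraries, and without it the log2 fold change went from -0.89 to -0.55. Slc2a6, a lysosomal member, had 68.9, 74.1 and 94.1 RPM in WT and 61.8, 62.6 and 63.01 RPM in DM, a change of -0.34 (SE 0.13) that went to -0.19 without WT replicate 3 and lost its call when that library or any DM library was left out.

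Slc37a2 (ENSMUSG00000032122.15, chromosome 9, 37227585 to 37255414, minus strand), a sugar phosphate exchanger of the endoplasmic reticulum that is abundant in macrophages, rose most in its class. It had 15.3, 17.5 and 22.9 RPM in WT and 60.98, 47.7 and 56.5 RPM in DM, with every DM library above every WT library (log2 fold change 1.56, SE 0.16). Slc45a3 (ENSMUSG00000026435.15, chromosome 1, 131962967 to 131982969, plus strand), a membrane protein related to sugar transporters, had 14.3 ± 2.98 RPKM (RPM per kilobase of body) in WT and 7.93 ± 0.744 RPKM in DM. It had 224, 279 and 341 RPM in WT and 147, 173 and 148 RPM in DM. WT values spread widely, yet the lowest of them lay above the highest DM value (log2 fold change -0.85, SE 0.16).

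**Figure D2:**
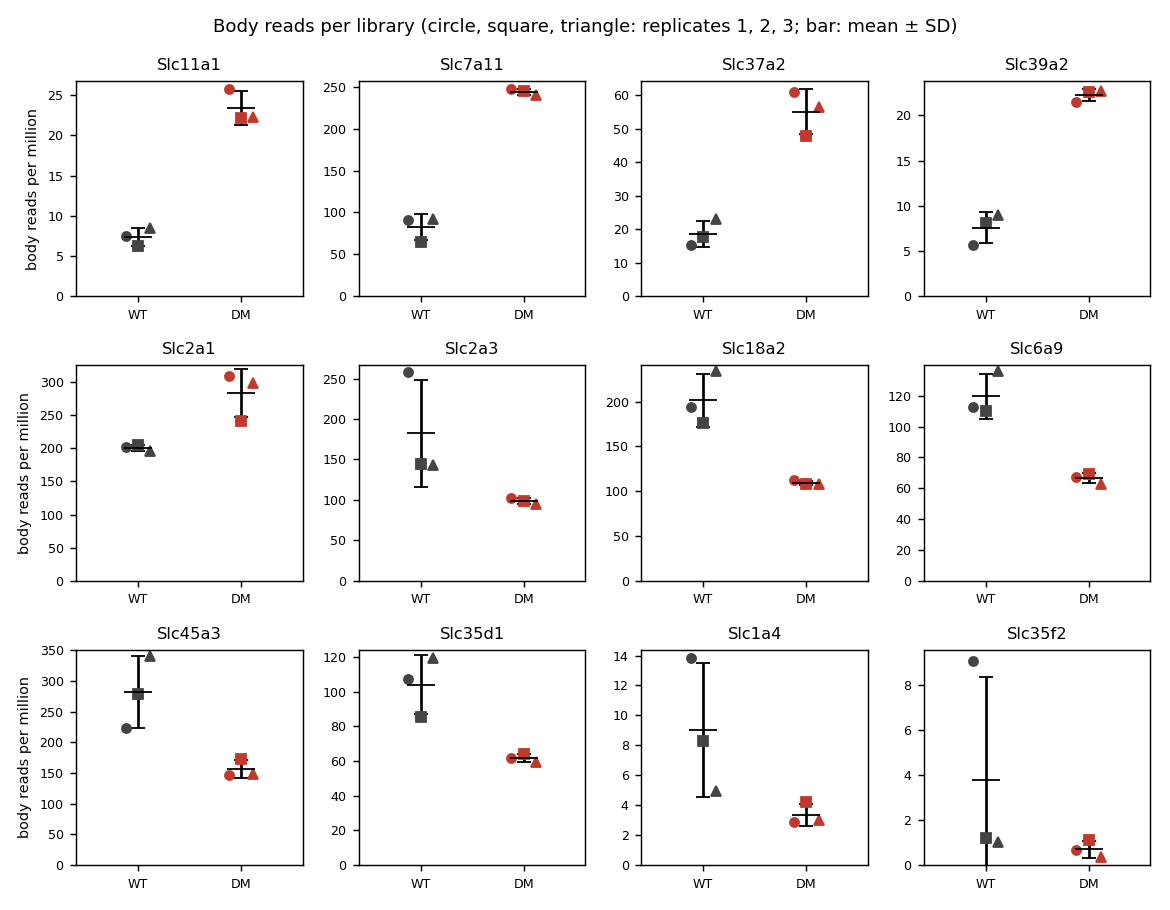
Body RPM in each library for 12 carriers, with WT in grey and DM in red and the bar giving mean ± SD (n = 3; the lower bar of Slc35f2 in WT reaches below 0 and is cut there). DM libraries lie above WT in Slc11a1, Slc7a11, Slc37a2, Slc39a2 and Slc2a1, and WT replicate 1 stands high in Slc2a3, Slc1a4 and Slc35f2.

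Ion carriers formed the largest class, with 19 genes, 12 higher and 7 lower, beside 57.4% higher and 42.1% lower over all genes tested. Their summed body level was 572 ± 52.4 RPM in WT and 635 ± 5.14 RPM in DM. The metal carriers held 8 of the higher genes. Slc11a1 (ENSMUSG00000026177.11, chromosome 1, 74375195 to 74386062, plus strand), the phagosomal iron and manganese transporter of macrophages, had the largest body rise of all 61. It had 7.44, 6.22 and 8.52 RPM in WT and 25.8, 22.1 and 22.3 RPM in DM, with no overlap (log2 fold change 1.66, SE 0.15). Its broadly used relative Slc11a2, which takes up iron, had 30.98, 30.2 and 32.2 RPM in WT and 38.1, 37.2 and 40.8 RPM in DM. That small difference of 0.31 (SE 0.09) was -0.019 under DESeq2's scaling. Slc40a1, the exporter of iron, had 3.31, 3.18 and 2.49 RPM in WT and 5.52, 5.94 and 5.56 RPM in DM (log2 fold change 0.92, SE 0.26).

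Of 4 zinc carriers, 3 were higher and Slc30a2 was lower. The importers Slc39a2 and Slc39a1 were both higher. Slc39a2 (ENSMUSG00000072572.9, chromosome 14, 51893610 to 51896745, plus strand) had 5.66, 8.07 and 8.96 RPM in WT and 21.5, 22.6 and 22.7 RPM in DM, so that each DM library held more than 2 times the highest WT value (log2 fold change 1.56, SE 0.18). Slc39a1 had 7.21 ± 1.61 RPM in WT and 12.3 ± 0.7603 RPM in DM. Of the Slc30 family, which moves zinc out of the cytosol, Slc30a2 (ENSMUSG00000028836.14, chromosome 4, 134343181 to 134354484, plus strand) fell. It had 23.4, 26.9 and 33.3 RPM in WT and 12.3, 13.8 and 12.8 RPM in DM, without overlap (log2 fold change -1.1, SE 0.15). Slc30a7, which loads zinc into the Golgi, had 63.7, 60.4 and 73.1 RPM in WT and 80.1, 79.9 and 77.8 RPM in DM; its change of 0.27 (SE 0.1) was -0.062 under DESeq2's scaling.

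Both copper carriers were higher. Slc31a2, an intracellular relative of the copper importer, had 34.6, 56.5 and 52.98 RPM in WT and 93.1, 100.1 and 101 RPM in DM (log2 fold change 1.03, SE 0.17). Slc31a1, the importer itself, lies beside it on chromosome 4 and had 18.7 ± 2.64 RPM in WT and 26.02 ± 1.25 RPM in DM (log2 fold change 0.47, SE 0.13). The sodium-calcium exchangers were both higher: Slc8b1 of mitochondria had 28.1, 40.6 and 38.1 RPM in WT and 66.7, 63.3 and 72.1 RPM in DM, and Slc8a1 of the plasma membrane 12.1, 12.97 and 15.1 and 28.5, 19.4 and 26.2 RPM. DM replicate 2 was the lowest DM library in both.

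The potassium-chloride cotransporters went opposite ways. Slc12a7 had 21.3 ± 3.13 RPM in WT and 31.5 ± 2.44 RPM in DM, and Slc12a5, best known from neurons, 12.3 ± 1.63 and 6.83 ± 0.351 RPM. Slc9a9, an endosomal sodium-proton exchanger, had 99.2, 77.4 and 114 RPM in WT and 55.03, 55.9 and 49.8 RPM in DM. Slc9a9 has a long body, and its change was -0.85 (SE 0.14).

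The remaining ion carriers were lower. Slc20a2, a phosphate importer whose row overlaps Smim19, had 79.2, 48.96 and 48.8 RPM in WT and 40.7, 40.5 and 40.1 RPM in DM; WT replicate 1 was high, the log2 fold change went from -0.55 to -0.27 without it, and the call was lost when any 1 DM library was left out. Slc41a3, a magnesium carrier, had 64.4, 82.05 and 103 RPM in WT and 52.1, 58.3 and 52.7 RPM in DM (log2 fold change -0.61, SE 0.16). Slc4a4, a sodium-bicarbonate cotransporter, had 5.24 ± 0.868 RPM in WT and 2.63 ± 0.2295 RPM in DM. Slc4a11 (ENSMUSG00000074796.10, chromosome 2, 130684113 to 130697519, minus strand), a proton carrier placed in the bicarbonate family by sequence, had 5.79, 2.32 and 2.45 RPM in WT and 1.49, 1.63 and 1.501 RPM in DM. WT replicate 1 held more than the other WT libraries together, and the log2 fold change went from -1.19 to -0.63 without it.

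All 5 genes of the nucleoside and nucleotide sugar class belonged to the Slc35 family, and 4 were lower. The class had 229.7 ± 12.02 RPM in WT and 162 ± 3.40 RPM in DM. The whole family held 6 of the carriers, 2 higher and 4 lower. Its other gene, Slc35f6, was left unplaced after values had been seen and is in neither the count nor the sum of the class. It had 39.9 ± 9.80 RPM in WT and 76.1 ± 2.68 RPM in DM. Several carriers of this family bring activated sugars and sulfate into the Golgi and endoplasmic reticulum, where glycans are built. Slc35d1, which carries sugar nucleotides for chondroitin chains, had 107, 85.8 and 119.6 RPM in WT and 61.8, 63.9 and 59.7 RPM in DM (log2 fold change -0.76, SE 0.13). Slc35b2, which carries the activated sulfate donor into the Golgi, had 75.3, 86.7 and 78.8 RPM in WT and 63.8, 59.5 and 59.6 RPM in DM (log2 fold change -0.4, SE 0.1). Per kilobase of body it was the most transcribed of the 61 genes, at 22.97 ± 1.68 RPKM in WT and 17.4 ± 0.707 RPKM in DM, against medians of 0.800 and 1.18 RPKM over the carriers. Slc35a2 (ENSMUSG00000031156.18, chromosome X, 7884028 to 7894492, plus strand), the UDP-galactose transporter, had 28.02, 25.01 and 23.8 RPM in WT and 16.8, 16.97 and 16.5 RPM in DM (log2 fold change -0.61, SE 0.11). Slc35f5 was the exception, with 16.6, 17.1 and 13.7 RPM in WT and 22.2, 21.7 and 22.5 RPM in DM. Of all 61 carriers, 10 were marked as having disputed or several substrates, and 4 of these stand in this class, so its count rests on the family name. Slc22a23, of unknown substrate, was not marked and stays in the class of its family. Without the 10, Slc35a2 alone is left here and the glucose class holds 3 genes (1 higher, 2 lower). The amino acid class then holds 13 (9 and 4) and the ion class 18 (12 and 6).

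Slc35f2 (ENSMUSG00000042195.9, chromosome 9, 53771538 to 53818154, plus strand) had the largest fitted fall of the 61, and 1 library set it. Its body held 209, 18 and 23 reads in the WT libraries and 15, 22 and 7 reads in the DM libraries, or 9.09, 1.19 and 1.01 RPM and 0.657, 1.09 and 0.3503 RPM. WT replicate 1 stood far above the rest, and WT replicates 2 and 3 overlapped DM replicate 2. Without WT replicate 1 the log2 fold change went from -2.43 to -0.63, with an edgeR adjusted p of 0.23.

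The organic cation and amine class held 7 genes, 4 higher and 3 lower, with 314 ± 26.1 RPM in WT and 226 ± 8.66 RPM in DM. Slc18a2 supplied 57.6% of its reads over both groups, and without it the difference between the groups was 4.32 RPM in the other direction. Slc18a2 (ENSMUSG00000025094.8, chromosome 19, 59260896 to 59296012, plus strand) packs histamine and other monoamines into the granules of mast cells and basophils. It had 194, 176 and 234 RPM in WT and 112, 108 and 108 RPM in DM. The DM libraries lay close together below all WT libraries (log2 fold change -0.88, SE 0.12), in the direction of the mast and basophil markers above; the part of that cell type in it was not tested. Slc22a3, an organic cation transporter that overlaps Plg, had 25.5, 25.3 and 23.4 RPM in WT and 18.1, 20.2 and 11.1 RPM in DM; without DM replicate 3, the lowest, the log2 fold change went from -0.59 to -0.37. Slc22a23 (ENSMUSG00000038267.15, chromosome 13, 34179158 to 34345182, minus strand), whose substrate is unknown, had 53.7, 50.6 and 53.5 RPM in WT and 33.1, 38.1 and 30.3 RPM in DM (log2 fold change -0.64, SE 0.11).

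Slc22a4, the carrier of ergothioneine, was the largest rise of this class, with 10.4, 12.4 and 11.2 RPM in WT and 27.3, 21.4 and 29.8 RPM in DM (log2 fold change 1.21, SE 0.15). Slc6a4, the serotonin transporter, had 8.83, 11.7 and 10.6 RPM in WT and 18.4, 15.98 and 16.7 RPM in DM, so that the 2 monoamine carriers Slc6a4 and Slc18a2 went opposite ways. Slc22a15 had 10.7, 13.96 and 6.86 RPM in WT and 19.5, 19.98 and 16.1 RPM in DM, and Slc22a18 had 2.78 ± 0.319 and 4.68 ± 0.2504 RPM.

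Vitamin and fatty acid carriers were higher in 4 of 5 genes, beside 57.4% of all genes tested, and DESeq2 did not call Slc27a1 and Slc27a4. The class had 238 ± 15.97 RPM in WT and 359 ± 21.3 RPM in DM, and Slc23a2 gave 67.1% of the reads over both groups. Slc23a2 takes up vitamin C and had 151, 148 and 181 RPM in WT and 256, 226 and 238 RPM in DM (log2 fold change 0.59, SE 0.11). Slc27a1 (ENSMUSG00000031808.7, chromosome 8, 71568882 to 71587302, plus strand) and Slc27a4 import long-chain fatty acids and activate them. In the body, Slc27a1 had 22.2, 27.3 and 27.97 RPM in WT and 40.5, 32.3 and 38.03 RPM in DM, and Slc27a4 19.5, 22.2 and 17.5 and 28.5, 28.00 and 29.3 RPM, and both genes kept their groups apart. Slc49a4, a lysosomal carrier, had 21.97, 27.00 and 18.2 RPM in WT and 47.8, 43.1 and 47.4 RPM in DM (log2 fold change 1.05, SE 0.15). Slc52a3, a riboflavin transporter, was lower, with 9.703, 9.197 and 10.97 RPM in WT and 6.26, 6.97 and 7.86 RPM in DM (log2 fold change -0.5, SE 0.18).

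The 2 organic anion carriers were both higher. Slc17a5, which exports sialic acid from lysosomes, had 27.1, 23.7 and 29.2 RPM in WT and 34.2, 33.4 and 33.8 RPM in DM, and Slc16a14 had 3.31, 3.24 and 2.36 and 5.997, 5.14 and 5.46 RPM. Of the 3 genes given no class, Slc35f6 had 28.9, 47.6 and 43.4 RPM in WT and 74.5, 74.5 and 79.2 RPM in DM, and Slc66a2 23.5, 32.1 and 26.1 and 42.4, 41.2 and 44.5 RPM. The scaffold gene Slc9a3r1 was lower, with 149, 146 and 152 RPM in WT and 115, 108 and 102 RPM in DM (log2 fold change -0.46, SE 0.09).

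At gene heads, 17 of the 60 carriers tested differed between the groups, 7 higher and 10 lower in DM (edgeR's quasi-likelihood test, adjusted p of 0.05). That is 28.3%, beside 20.3% of the 2579 genes tested in the table, of which 9.62% were higher and 10.7% lower. The median head log2 fold change was -0.12 over the carriers and -0.11 over all genes. Slc22a18 had too few head reads to be tested. All 17 head changes ran in the direction of the body change of the same gene, as did 99.4% of head changes over the table. In RPM the groups did not overlap in 12 heads that were higher and 13 that were lower in DM, beside 17.7% and 23.3% of all genes.

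Single libraries decide how many heads pass. WT replicate 2 gave the highest head level of the 6 libraries in 34 of the 61 carriers. Without it 26 heads passed, without WT replicate 1 or 3, 21 and 8, and without DM replicate 2 or 3, 8 and 5. Without DM replicate 1 no carrier passed, with adjusted p of 0.0551 to 0.159 for the 17; 18 carriers then had an unadjusted p under 0.05, beside 25.1% of all genes, and 14 of 2633 genes passed. With DESeq2 25 heads passed and with TMM scaling 27, including all 17, and the higher share of these calls went from 41.2% to 52.0% and 55.6%. With the authors' size factors 17 passed, 7 higher and 10 lower. Slc11a1, Slc39a2, Slc45a3 and Slc27a1 lost their call only in the fit without DM replicate 1.

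Metal carriers gave 2 of the 7 head rises. Slc39a2 had 1.61, 0.397 and 1.92 RPM in WT and 4.77, 4.95 and 4.104 RPM in DM. Behind these stood 37, 6 and 44 reads in the WT libraries and 109, 100 and 82 in DM; WT replicate 2 was lowest, and all DM libraries lay above all WT libraries (log2 fold change 1.76, SE 0.39), with an adjusted p of 0.00979 from edgeR. Slc11a1 had 2.26, 1.59 and 2.36 RPM in WT and 5.78, 5.84 and 6.16 RPM in DM. The DM libraries were tight and more than 2 times the highest WT value, with 1.5 (SE 0.27, adjusted p 0.00574). Among the other metal carriers, the head of Slc31a2 went from 13.6 ± 3.71 to 20.8 ± 1.82 RPM and did not pass (adjusted p 0.1), and those of Slc40a1 and Slc31a1 differed by less than the WT spread, at 3.396 ± 1.45 and 18.3 ± 5.19 RPM in WT and 3.43 ± 0.8596 and 18.1 ± 1.21 RPM in DM.

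Amino acid carriers gave 3 head rises. Slc7a11 had 4.26, 3.04 and 3.23 RPM in WT and 5.82, 7.96 and 7.46 RPM in DM. The groups did not overlap and the log2 fold change was 1.003 (SE 0.27), with an adjusted p of 0.0192 from edgeR. Slc6a12 had 1.78, 3.11 and 2.45 RPM in WT and 6.26, 4.85 and 4.85 RPM in DM (head log2 fold change 1.14, adjusted p 0.0163). Slc15a3 had 13.9, 14.6 and 13.9 RPM in WT and 28.7, 25.9 and 28.03 RPM in DM, with little spread in either group (head log2 fold change 0.96, adjusted p 0.0137). The sugar phosphate exchanger Slc37a2 had 1.44, 2.85 and 1.705 RPM in WT and 4.03, 3.91 and 4.404 RPM in DM (head log2 fold change 1.07, adjusted p 0.0246).

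Falls at the head covered amine, sugar, glycine and sugar nucleotide carriers. Slc45a3 had 15.1, 27.1 and 27.8 RPM in WT and 6.57, 9.69 and 8.51 RPM in DM. WT replicate 1 was the lowest WT library and still above the DM group, and the head log2 fold change was -1.5 (SE 0.3), with an adjusted p of 0.00719 from edgeR. Slc18a2 had 11.5, 19.3 and 18.6 RPM in WT and 7.53, 9.45 and 8.91 RPM in DM (head log2 fold change -0.93, adjusted p 0.0281). Slc35a2 had 15.4, 17.01 and 12.8 RPM in WT and 6.83, 7.72 and 6.86 RPM in DM (head log2 fold change -1.08, adjusted p 0.0128). In each of these genes the groups were separate.

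Slc30a2 had 3.22, 8.14 and 8.04 RPM in WT and 2.32, 3.12 and 2.35 RPM in DM, with WT replicate 1 barely above the highest DM value (head log2 fold change -1.31, edgeR's adjusted p 0.0181). Slc6a9 had 5.18, 5.16 and 6.08 RPM in WT and 1.75, 3.81 and 2.15 RPM in DM (head log2 fold change -1.09, adjusted p 0.023). Slc22a23 had 4.66, 8.93 and 7.21 RPM in WT and 2.58, 4.55 and 2.65 RPM in DM, with DM replicate 2 just below WT replicate 1 (head log2 fold change -1.08, adjusted p 0.0273). Of the other falls, 3 rested on few head reads. Slc4a11 had 38, 26 and 55 head reads in the WT libraries and 17, 13 and 15 in DM, Slc43a1 28, 27 and 23 and 13, 14 and 6, and Slc35f2 36, 20 and 15 and 2, 6 and 9. Their adjusted p-values from edgeR were 0.014, 0.0388 and 0.0176. In Slc35f2 the head fall did not rest on WT replicate 1 alone, since WT replicate 2 was about as high in RPM (1.57, 1.32 and 0.656 RPM in WT and 0.0876, 0.297 and 0.4504 RPM in DM).

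The head of Slc2a3 depends on the transcript. The row used, with the highest body count, begins far upstream and had 67, 77 and 119 head reads in the WT libraries and 38, 51 and 44 in DM (edgeR's adjusted p 0.0287). A shorter row of the same gene had 577, 219 and 557 head reads in WT and 266, 261 and 263 in DM. Taking the row with the highest head count in each gene gave a log2 fold change of -0.76 and an adjusted p of 0.0570 for Slc2a3, so that the fall no longer passed.

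**Figure D3:**
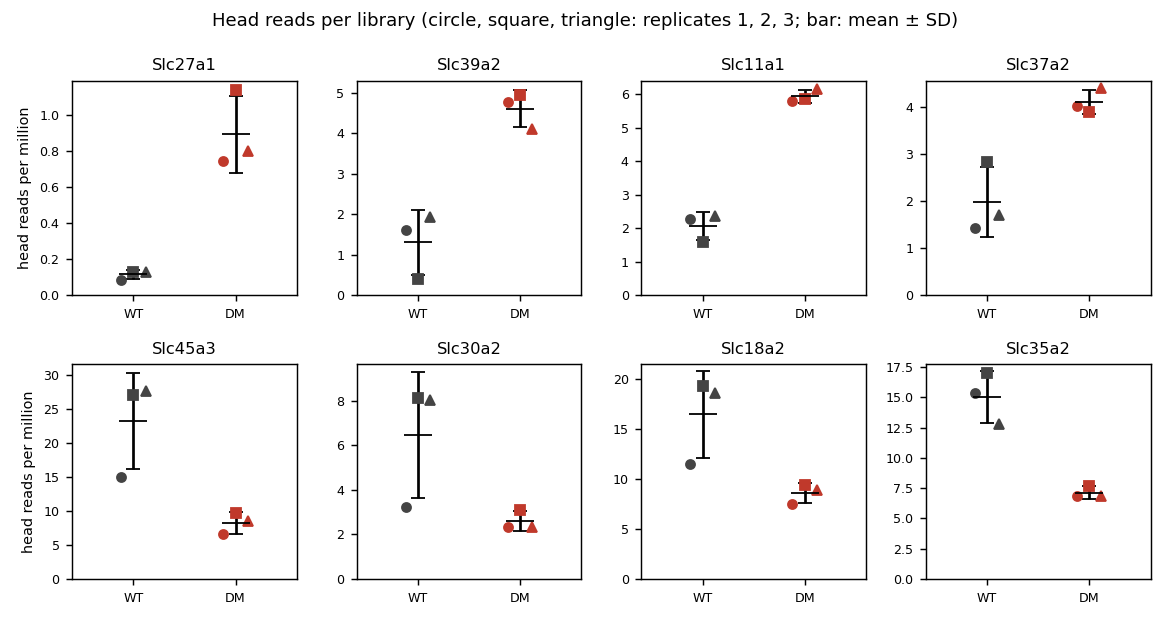
Head RPM in each library for 8 carriers whose heads passed the test, with WT in grey and DM in red and the bar giving mean ± SD (n = 3). The 4 upper genes were higher in all DM libraries, and the 4 lower genes were lower in all DM libraries.

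Some carriers with higher bodies had head values on the other side of 0. Of the 37 with a higher body and a tested head, 11 had a head log2 fold change below 0, or 29.7%, beside 32.1% over the table. None of these 11 passed the head test. Among them, with body and then head log2 fold changes, were Slc36a1 (0.57 and -0.36), Slc15a4 (0.32 and -0.35), Slc23a2 (0.59 and -0.24) and Slc2a1 (0.49 and -0.12). In the fit without WT replicate 2 these head values were -0.02, 0.08, 0.17 and 0.15. The side of 0 thus rested on that library in Slc15a4, Slc23a2 and Slc2a1. In that fit the median head change of all genes went from -0.111 to 0.105. All 23 carriers with lower bodies had a head value below 0, beside 96.6% over the table. Without WT replicate 2 those of Slc4a4, Slc41a3 and Slc9a9 were 0.59, 0.08 and 0.05. Under TMM scaling the median head change of all genes moved by 0.09 and the median body change by -0.21.

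**Figure D4:**
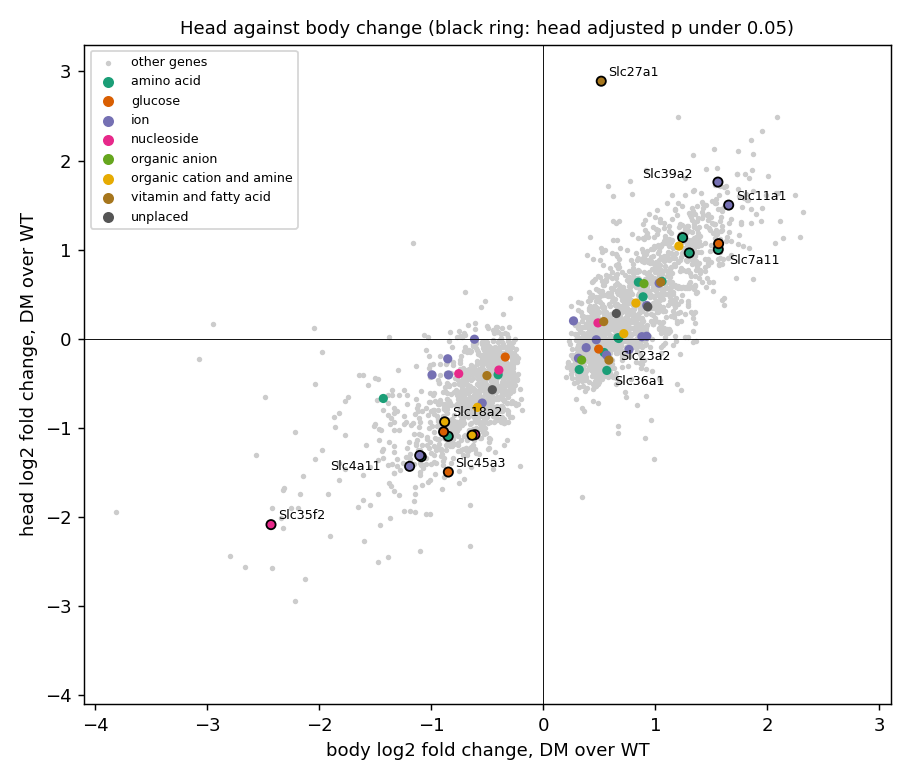
Fitted head against body log2 fold change, DM over WT, for the carriers (coloured by substrate class, black ring where the head adjusted p was under 0.05) and the other genes of the table in grey. Slc27a1 stands above the band of points, and the empty strip around a body change of 0 comes from the selection of the rows.

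Slc27a1 had the largest difference between head and body change of the carriers tested. Its head held 2, 2 and 3 reads in the WT libraries and 17, 23 and 16 reads in DM, and its body 511, 412 and 640 and 924, 652 and 760 reads. Every DM head count lay above every WT head count, and the head log2 fold change was 2.89 (SE 0.54; adjusted p of 0.00649 from edgeR) beside 0.52 in the body. Per 100 body reads there were 0.391, 0.485 and 0.469 head reads in the WT libraries and 1.84, 3.53 and 2.11 in the DM libraries. The test of the difference between head and body change gave a log2 value of 2.37 (SE 0.48), an unadjusted p of 0.000262 and an adjusted p of 0.0966, which does not pass. It passed with DESeq2 (0.0227), with separate TMM factors for heads and bodies (0.0187) and without WT replicate 2 (0.0299). With 2 or 3 reads per WT library, the size of this change is poorly known.

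No carrier passed the test of the head to body ratio: 0 of 60 with edgeR at an adjusted p of 0.05, beside 0.0776% of 2577 genes. At an unadjusted p under 0.05 there were 10, 2 higher and 8 lower in DM, and DESeq2 called 1. Over all genes 395 of 2577, or 15.3%, had such a p, 46 higher (1.79%) and 349 lower (13.5%), so the count among the carriers is near the background and is no result about them. Besides Slc27a1, the ratio was higher in Slc41a3 (WT ratios of 5.07, 8.15 and 7.74 and DM ratios of 11.4, 10.4 and 11.02, in head reads per 100 body reads; unadjusted p 0.0279, edgeR's adjusted p 0.275). Slc41a3 passed with separate TMM factors, and Slc35d1 and Slc4a4 passed without WT replicate 2. Both Slc41a3 and Slc35d1 depend on which of 2 deposited rows is read. In the row of Slc41a3 that was not used, which starts near the RefSeq start, the head held 38, 66 and 109 reads in the WT libraries and 33, 34 and 46 in DM, beside 75, 101 and 183 and 136, 123 and 116 in the row used, so the head of that row was not higher in DM. With the row of Slc35d1 that has more head reads, its ratio difference went from 0.38 to -0.046 on the log2 scale (edgeR's adjusted p of 0.955). Among the 8 that were lower, Slc39a1 had WT ratios of 49.2, 68.2 and 43.8 and DM ratios of 24.3, 35.1 and 27.1, Slc36a1 10.9, 31.8 and 16.95 and 7.699, 12.2 and 10.5, and Slc40a1 111, 148 and 73.7 and 46.03, 71.7 and 63.1. WT replicate 2 was highest in each of these 3 genes. Over all carriers WT replicate 2 had the highest head to body ratio in 41 of 61, and the pooled ratio was 21.9 ± 7.02 for WT and 17.7 ± 1.19 for DM, beside 17.4 ± 5.55 and 13.7 ± 0.904 over all genes. The groups' mean ratios differed by less than the WT spread.

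The ratio also spanned a wide range among carriers. In WT it ran from 0.449 head reads per 100 body reads in Slc27a1 to 111 in Slc40a1, with a median of 22.0, and in DM from 1.55 in Slc9a9 to 127 in Slc4a4, with a median of 16.4. Slc35b2, with a short body, had 84.4 ± 22.3 in WT and 88.2 ± 9.62 in DM, and the long Slc9a9 1.102 ± 0.603 and 1.55 ± 0.296. Body length enters this ratio, so it ranks no gene by pausing. The head window also need not lie at the RefSeq promoter: the RefSeq start lay at -68200 bp from the deposited start in Slc8a1 and at 14521 bp in Slc41a3, negative values being upstream.

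**Figure D5:**
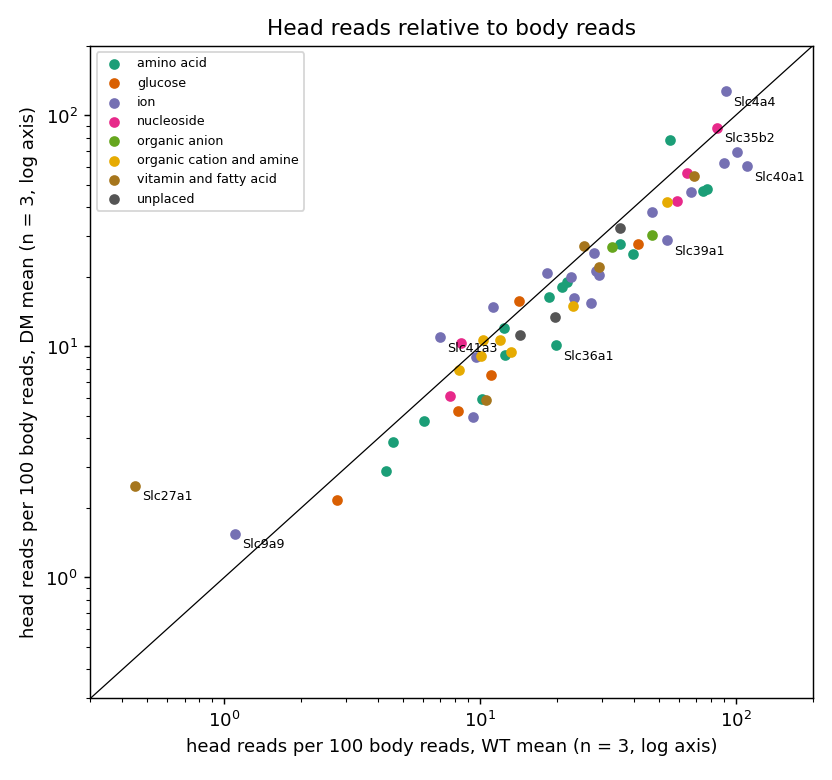
Head reads per 100 body reads of each carrier as the mean of 3 WT libraries (x, log axis) against the mean of 3 DM libraries (y, log axis), with the line of equal values. Slc27a1 lies far above the line, and most carriers lie below it; WT replicate 2 had the highest ratio in 41 of all 61.

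Promoter sequences are shown for the carriers whose heads rose and whose RefSeq start lay within 50 bases of the deposited one. The head window then lies at that start. Slc27a1 has 3 RefSeq promoter entries and Slc6a12 has 5, and the entry nearest the deposited start was taken. Whether that start is the one used in these cells was not tested. Slc18a2 is added as the head fall with the most head reads among such genes. The 250 bases before the RefSeq start (GRCm38.p6) are written 5′ to 3′ on the strand of the gene, and capitals mark the motifs searched. These genes were picked after their values had been seen.
Slc27a1, chr8:71568621-71568870, plus strand: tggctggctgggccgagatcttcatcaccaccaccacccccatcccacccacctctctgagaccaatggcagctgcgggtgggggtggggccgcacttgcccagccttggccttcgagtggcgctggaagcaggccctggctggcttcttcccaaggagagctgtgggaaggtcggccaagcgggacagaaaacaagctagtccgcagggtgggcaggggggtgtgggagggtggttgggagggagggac
Slc39a2, chr14:51893360-51893609, plus strand: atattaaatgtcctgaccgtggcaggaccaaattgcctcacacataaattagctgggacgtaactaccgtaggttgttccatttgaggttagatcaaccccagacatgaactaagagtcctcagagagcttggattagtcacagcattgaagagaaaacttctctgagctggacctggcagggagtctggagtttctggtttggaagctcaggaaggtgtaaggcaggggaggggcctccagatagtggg
Slc11a1, chr1:74374953-74375202, plus strand: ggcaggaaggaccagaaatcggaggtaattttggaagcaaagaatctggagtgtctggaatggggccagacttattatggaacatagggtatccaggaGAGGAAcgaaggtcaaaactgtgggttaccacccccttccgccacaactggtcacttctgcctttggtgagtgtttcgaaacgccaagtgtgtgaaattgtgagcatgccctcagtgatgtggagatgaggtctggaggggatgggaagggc
Slc6a12, chr6:121343138-121343387, plus strand: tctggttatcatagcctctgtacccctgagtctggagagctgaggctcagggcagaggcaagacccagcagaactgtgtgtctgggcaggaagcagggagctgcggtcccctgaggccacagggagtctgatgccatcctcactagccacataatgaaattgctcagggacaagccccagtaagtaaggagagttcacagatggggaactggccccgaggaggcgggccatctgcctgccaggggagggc
Slc7a11, chr3:50443614-50443863, minus strand: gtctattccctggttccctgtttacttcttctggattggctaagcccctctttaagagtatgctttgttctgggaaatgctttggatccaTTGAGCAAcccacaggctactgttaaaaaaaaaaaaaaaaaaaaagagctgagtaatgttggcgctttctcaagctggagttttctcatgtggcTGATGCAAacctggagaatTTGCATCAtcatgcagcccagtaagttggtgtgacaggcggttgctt
Slc18a2, chr19:59260628-59260877, plus strand: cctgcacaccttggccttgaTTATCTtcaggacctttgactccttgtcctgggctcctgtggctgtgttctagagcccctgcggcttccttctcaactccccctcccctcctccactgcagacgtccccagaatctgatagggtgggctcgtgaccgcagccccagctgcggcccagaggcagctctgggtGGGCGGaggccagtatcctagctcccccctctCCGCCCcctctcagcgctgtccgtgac

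The Slc7a11 promoter held TGATGNAA on the gene's own strand beginning 66 bases before the start and on the opposite strand 47 bases before it, and TTGCNNAA on the opposite strand 160 bases before it. TGATGNAA is the core of the composite element bound by C/EBP and ATF proteins, through which amino acid shortage induces genes, and TTGCNNAA is part of the C/EBP site. The Slc11a1 promoter held GAGGAA, the core of sites for ETS factors such as PU.1, 152 bases before the start. The Slc18a2 promoter held GGGCGG, the GC box, on its own strand 59 bases and on the opposite strand 27 bases before the start. The same window held AGATAA on the opposite strand 230 bases before the start, a motif bound by GATA1 and its relatives. No motif of the list was found in the windows of Slc27a1, Slc39a2 and Slc6a12, which says only that these letters are not there.

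Of the 61 carriers, 50 had a promoter entry and 35 a RefSeq start within 50 bases of the deposited start. Both strands of 9 motifs were searched in these 35 and in all 32851 promoters; CACGTG and TGANTCA read the same on both strands. GGGCGG was in 25 of the 35, or 71.4%, beside 32.7% of all promoters, and the median GC content was 63.6% beside 52.4%. TATAAA was in 0 of the 35 beside 12.4% of all promoters. CACGTG, the E-box, was in 5 (14.3% beside 6.02%), TGATGNAA in 3 (8.57% beside 3.45%) and TGANTCA, the AP-1 site, in 4 (11.4% beside 6.75%). GAGGAA was in 9 (25.7% beside 23.3%), TGTGGT, a RUNX site, in 5 (14.3% beside 14.0%), TTGCNNAA in 2 (5.71% beside 9.56%) and AGATAA in Slc18a2 alone (2.86% beside 9.99%). The 3 genes with TGATGNAA were Slc7a11, Slc49a4 and Slc9a9, and the first 2 had higher and the third lower bodies in DM. All promoters include those of silent genes, and no test was made of these shares.

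Other transport genes and pathways that use carrier substrates were counted from lists written with earlier results known, and the values given for their genes are log2 fold changes, DM over WT, of the body unless the head is named. The proton pump of lysosomes and endosomes, which drives some of these carriers, had 8 of 8 held subunits with higher bodies, from 0.37 in Atp6v0d1 to 1.66 in Atp6v0d2. Only the head of Atp6v0d2 passed (1.2, edgeR's adjusted p 0.0165). Of 17 listed iron and heme genes 6 were held, and all 6 had higher bodies, led by Flvcr2 (1.87), a heme and choline carrier. None of their heads passed with edgeR, where 1 had an unadjusted p under 0.05, beside 37.2% of all genes. Of 29 listed genes of amino acid sensing by mTORC1, 4 were held. All 4 were higher in the body, Fnip2 at 1.2 and Rragd at 0.9, and the head of Rragd passed (1.12, edgeR's adjusted p 0.0397). Of 23 listed glycolysis genes 5 were held. Hk3, Pfkfb4, Pkm and Gapdh were higher (0.96, 0.65, 0.51 and 0.4) and Hk1 lower (-0.27). The head of Hk3 passed (0.92, edgeR's adjusted p 0.0203). Heads thus passed in 1 of 8 proton pump genes, 0 of 6 iron and heme genes, 1 of 4 mTORC1 genes and 1 of 5 glycolysis genes. Over all genes 20.3% of heads passed. Of all bodies tested 57.4% were higher, and under DESeq2's scaling 42.7% of body calls were.

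ABC transporters, which use ATP directly, had 8 of 11 bodies higher, among them the cholesterol exporters Abca1 (1.28) and Abcg1 (1.13), and 3 lower, with Abcb4 at -1.04; none of the heads passed with edgeR, where 4 had an unadjusted p under 0.05, near the 37.2% of all 2579 genes whose heads had one. P-type pumps had 9 bodies higher and 7 lower, with Atp7a, a copper pump, at 0.83 and its relative Atp7b at -1.56. The head of Atp1b1 passed (-1.3), as 1 of 14 P-type heads tested, beside 20.3% of all genes. Slco3a1, the organic anion polypeptide held, was higher (0.94). The bodies of these lists passed at the rate the selection of rows sets, 99.5%, with 57.4% of all genes tested higher and 42.1% lower. A listed gene that did not pass the authors' body test could not be held. Nothing particular to these lists follows from their counts.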

How the data were processed

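Nascent RNA from 6 libraries (3 WT, 3 DM, run-on of 3 min) was read from 1 deposited table of 3022 transcript rows. The authors deposited raw read counts for head and body windows, a library total per sample, and, per the file headers, a mean of body counts over size factors (a signal), a log2 fold change with its error, and a p-value with its adjusted value for body counts. The submitters' processing notes name mm10, dm3, Bowtie 1.1.2, MACS2, bedtools 2.28, cutadapt and Trimmomatic without roles; the strand used in counting is not given in the sources used here. Coordinates are 1-based mm10.

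One row per gene was kept, which left out 278 rows, 5 of them of carriers. Head, body and ratio (the region by group interaction, library as a block) were tested over all genes with edgeR 4.0.16 (R 4.3.3) quasi-likelihood fits, filterByExpr with a minimum count of 10, library totals as library sizes and Benjamini-Hochberg adjustment at 0.05. TMM and DESeq2 1.42.0 factors were alternatives only, since every row held had passed the authors' body test and such rows need not balance. Other alternatives were the authors' size factors, as implied by their deposited means, the filter, the choice of row, a replicate block, stricter thresholds and leaving out each library. The code was tested on simulated data.

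The carriers and all lists were chosen with earlier results of these data known. Substrate classes followed the family, except that Slc16a10, Slc66a2, Slc9a3r1, Slc6a4 and Slc35f6 were placed singly by known substrate, or left unplaced, after values had been seen; counts by family were also made for the first 3. Per-library values were set out by rule for the 6 genes per class with most body reads, the extremes of each class, and all genes passing the head test; the others were added afterwards. Gene symbols matched RefSeq (GRCm38.p6) for 61 of 61 carriers. The values of 1 carrier are not reported here, although it is counted in the totals.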

Additional observations from a re-analysis of the deposited data

How the results depend on the processing

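Body directions held in every fit for 58 of the 61 carriers; under DESeq2 the log2 fold changes of Slc11a2, Slc15a4 and Slc30a7 were -0.019, -0.011 and -0.062. DESeq2 left 20 carriers with higher bodies, a fold of at least 1.5 left 25, and an adjusted p of 0.01 left 15 with lower bodies. Leaving out 1 library kept 48 to 60 body calls. Head calls were 27 (15 higher) under TMM, with 13 higher under DESeq2, and 4 (3 higher, 1 lower) at an adjusted p of 0.01. Over the fits without 1 library they ran from 0 to 26, with 0 to 16 higher and 0 to 14 lower. Ratio calls, all higher, were 1 with DESeq2, 2 with separate TMM factors and 0 to 3 without 1 library. Without the member with most reads, the difference in summed body RPM, DM minus WT, was -189.02 for sugars without Slc2a1, -24.94 for nucleotide sugars without Slc35d1, 2.56 for organic anions without Slc17a5, 4.32 for organic cations without Slc18a2, 51.58 for unplaced genes without Slc9a3r1 and 40.76 for vitamins and fatty acids without Slc23a2. The fall of Slc45a3 alone was larger than that of the sugar sum with all members. The causes were not tested.

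The labels do not say whether equal replicate numbers pair the libraries. Same-numbered deviations from the group mean correlated at -0.059, -0.194 and 0.442 in bodies and 0.043, -0.045 and 0.079 in heads. With 3 libraries per group these values cannot decide whether a day or preparation was shared. With the replicate block there were 60 body calls (Slc52a3 lost), 23 head calls (12 higher) and 1 ratio call, Slc27a1 (adjusted p 0.0240). Head counts limit the head and ratio tests: the mean head count of a carrier ran from 8.5 to 1633 reads, with a median of 112.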
